A study of Mus musculus with 14 samples.

Results

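Vitamin A handling in chemically reprogrammed mouse cells was followed through 9 genes: Rpe65, Lrat, Rlbp1, Rdh5, Rdh10, Rgr, Rrh, Stra6 and Ttr. They were chosen by symbol as the enzymes, binding protein, opsins, receptor and carrier of the visual cycle and of retinol supply, and all 9 were found among the 55291 gene symbols of the mouse count table and passed the filter on low counts. RNA sequencing covered 14 C57BL/6J libraries in 5 groups. The fibroblast group (MEF, mouse embryonic fibroblasts) had 3 libraries. Cells taken at day 7 (D7) and day 18 (D18) of a chemical protocol, labelled as reprogramming intermediates, had 3 libraries each, as did the labelled end product, chemically induced retinal pigment epithelium (RPE), at day 32 (D32). Primary RPE (P-RPE), labelled as untreated, had 2. D7 and D18 cells were in M7 medium, which holds a B27 supplement without vitamin A, bFGF, CHIR-99021, LDN193189, A 83-01, Hh-Ag1.5, RG108, BMS-345541 and CKI-7. D32 cells were labelled with M3 medium, which holds serum replacement, Y27632, nicotinamide, activin A and 1 µM retinoic acid. The labels list M7 medium for the MEF libraries as well, and list whole embryos at E13.5 as the tissue of all 14 libraries, P-RPE included; groups were taken from the sample titles. Per the labels' protocols, cells with a visibly successful phenotype were scraped at each time point, so the libraries are of selected areas of a dish and not of all its cells. Nothing in the labels says that replicates came from separate embryos or cultures, so the p-values measure only the spread between these libraries, which may be technical.

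Vision in vertebrates depends on the return of all-trans retinoid from photoreceptors to the RPE, where it is turned back into 11-cis retinal. Retinol reaches the RPE from blood bound to retinol-binding protein and transthyretin (Ttr) and crosses the basal membrane through the receptor Stra6. Inside the cell Lrat esterifies retinol, Rpe65 isomerises the ester to 11-cis retinol, Rdh5 oxidises this to 11-cis retinal, and Rlbp1 (CRALBP) binds the 11-cis forms. Rdh10 oxidises retinol in many tissues, where its product also feeds retinoic acid synthesis. Rgr and Rrh (peropsin) are opsins of the RPE that bind all-trans retinal.

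Promoter sequence was compared because all 9 genes rose from D18 to D32, some of them after rises at earlier steps. Promoters of 7 of the 9 genes were taken from RefSeq's table (GRCm38.p6). That table had no entry for Rdh10, and Ttr was left out of the search. The 250 bases upstream of each annotated start were searched on both strands. The letters sought were TAATCC (the OTX and CRX core), CATGTG and CACGTG (the M-box and E-box of MITF), TAATTA (a homeobox core), AGGTCA (a core bound by nuclear receptors) and ACAATG (a SOX core). The promoters of Rpe65, Rgr and Rlbp1 are shown because they held an OTX or MITF letter match, and that of Rdh5 because this gene rose at every step of the protocol. Those of Lrat, Rrh and Stra6 held none of these matches and are not shown. All are written 5′ to 3′ on the gene's strand, with matches in capitals.
Rpe65 (chr3:159598931-159599180, plus strand): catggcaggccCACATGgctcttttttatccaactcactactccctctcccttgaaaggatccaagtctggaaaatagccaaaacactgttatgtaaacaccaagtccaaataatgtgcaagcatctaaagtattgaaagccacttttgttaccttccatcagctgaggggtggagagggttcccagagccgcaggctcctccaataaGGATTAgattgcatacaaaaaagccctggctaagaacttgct
Rgr (chr14:37049015-37049264, minus strand): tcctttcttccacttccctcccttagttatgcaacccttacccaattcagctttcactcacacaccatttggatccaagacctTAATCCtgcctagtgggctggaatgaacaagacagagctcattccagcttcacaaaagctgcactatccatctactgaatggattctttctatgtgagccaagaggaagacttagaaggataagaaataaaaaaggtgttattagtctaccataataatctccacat
Rlbp1 (chr7:79387028-79387277, minus strand): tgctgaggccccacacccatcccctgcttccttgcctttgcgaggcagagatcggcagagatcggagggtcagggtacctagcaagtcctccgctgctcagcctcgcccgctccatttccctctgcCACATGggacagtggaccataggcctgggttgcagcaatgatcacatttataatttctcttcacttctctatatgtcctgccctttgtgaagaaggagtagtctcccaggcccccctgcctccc
Rdh5 (chr10:128919298-128919547, minus strand): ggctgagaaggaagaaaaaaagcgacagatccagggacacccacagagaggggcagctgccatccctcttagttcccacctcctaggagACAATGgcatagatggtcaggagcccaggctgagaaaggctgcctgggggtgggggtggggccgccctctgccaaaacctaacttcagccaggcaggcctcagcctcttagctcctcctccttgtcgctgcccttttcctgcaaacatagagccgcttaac
In the Rpe65 promoter the capitals mark CACATG, the M-box read on the other strand, 239 bases upstream of the start and GGATTA, the OTX core read on the other strand, 42 bases upstream. The Rgr promoter held TAATCC 167 bases upstream, the Rlbp1 promoter CACATG 124 bases upstream and the Rdh5 promoter ACAATG 161 bases upstream. TAATCC was thus found in 2 of 7 members against 6.38% of 27025 mouse promoters, CATGTG in 2 of 7 against 12.2%, and ACAATG in 1 of 7 against 11%. CACGTG (6.05% of promoters), TAATTA (4.9%) and AGGTCA (13.8%) were found in 0 of the 7. These are matches of letters in a short window, given as a description.

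Library totals ranged from 32352405 to 41390196 counts, so that 1 count was worth 0.0227 to 0.0305 CPM, the count scaled to a common library size. Levels below are CPM after TMM scaling of library sizes, given as mean ± SD over n = 3 libraries (n = 2 for P-RPE). Changes are log2 fold changes from edgeR's quasi-likelihood fit over 20562 genes, with Benjamini-Hochberg adjusted p-values, and a gene was called at an adjusted p under 0.05. Even counts outnumbered odd ones (2374 to 2489 genes per library had 2 counts, 682 to 999 had 1), so a fragment may have given 2 counts. Where a group had 0 counts, a fold is a lower bound, computed as if that group had held 3 counts in all, which covers counting error only. With 6 counts in place of 3, the bound for Ttr given below would be 36812-fold. In bulk RNA, fewer cells of a type and less RNA per cell cannot be told apart, which applies to every level given here.

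All 9 genes rose between D18 and D32, and all 9 stood lower in D32 than in P-RPE. Between D18 and D32 the count was 9 higher of 9 (29.9% of all tested genes were called higher and 26.1% lower), with a median log2 change of 8.14 over the members beside 0.07 over all tested genes. Between P-RPE and D32 it was 9 lower of 9 (26.8% of tested genes were called lower and 27.1% higher), with a median of -3.29 beside 0.02. In both comparisons the libraries of the 2 groups did not overlap for any of the 9. Earlier steps moved fewer of them. From MEF to D7 the count was 6 higher, 0 lower and 3 with no call (28.5% of tested genes higher, 26.5% lower), and from D7 to D18 it was 3 higher, 0 lower and 6 with no call (29.2% higher, 27.4% lower). Against MEF, all 9 were higher in D32 (35.6% of tested genes higher, 24.6% lower) and all 9 in P-RPE (39.3% higher, 31.4% lower); these comparisons share the MEF libraries. The 9 genes together took 0.00164% to 0.00192% of all counts in MEF libraries. Their share was 0.00504% to 0.00634% in D7 libraries, 0.0132% to 0.0148% in D18 libraries, 0.483% to 0.953% in D32 libraries and 5.56% to 6.30% in P-RPE libraries.

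**Figure D1:**
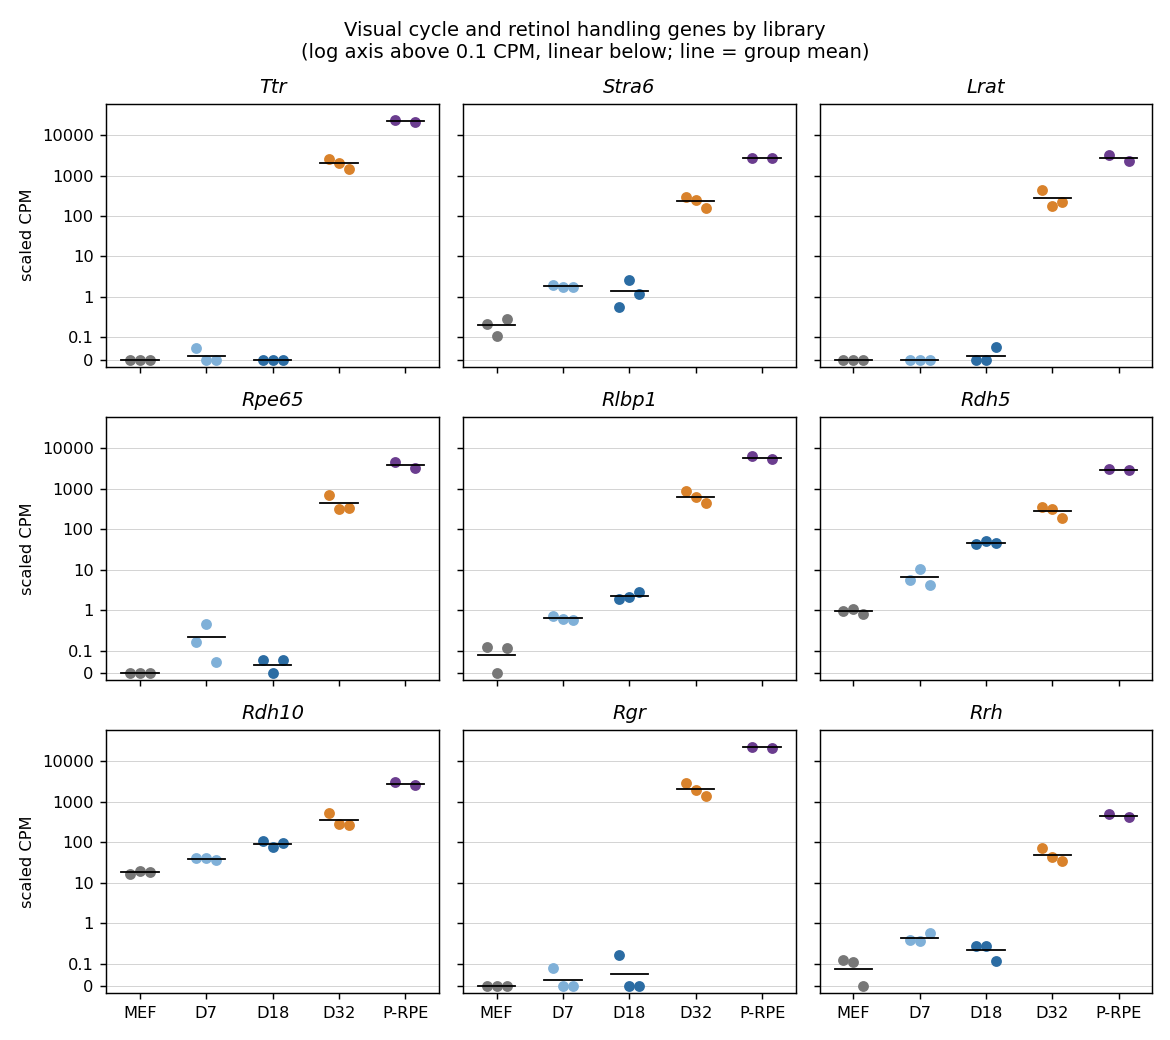
Scaled CPM of each of the 9 genes in every library (points) with the group mean (line), on an axis that is logarithmic above 0.1 CPM and linear below. Ttr, Lrat, Rpe65, Rgr and Rrh stayed under 1 CPM in every library up to D18, Rdh5 and Rdh10 rose in steps, and all 9 genes were highest in both P-RPE libraries.

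Supply of retinol was represented by Ttr and Stra6. Ttr (Ensembl ENSMUSG00000061808.4, protein coding, GRCm38 chromosome 18, start 20665280, end 20674321) had 0 counts in all MEF and D18 libraries and 2 counts in a single D7 library. At D32 it stood at 2622, 2075 and 1429 CPM, and in P-RPE at 24067 and 21040.4 CPM. The gene was thus at or near 0 counts up to D18, and its D32 and P-RPE libraries did not overlap. Its mean of 2042 ± 597 CPM at D32 was at least 73625-fold higher than at D18 (adjusted p = 8.18e-10). It was 9.05% of the P-RPE mean of 22554 ± 2140.2 CPM (log2 -3.47, SE 0.26, adjusted p = 1.15e-06).

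Stra6 (chromosome 9, start 58063788, end 58153996) followed another course, with a first rise at D7. It overlaps Ccdc33 on the other strand, which averaged 0 to 10.6 CPM in the 5 groups. It had 0.213, 0.111 and 0.284 CPM in MEF and 1.93, 1.79 and 1.74 CPM at D7, an increase of 3.15 on the log2 scale (SE 0.56, adjusted p = 3.20e-04). The D18 libraries stood at 0.562, 2.56 and 1.17 CPM, on both sides of the D7 values, with no call (log2 -0.34, adjusted p = 0.502). Replicate 2 decides that result: without it, Stra6 was lower at D18 than at D7 (log2 -1.08, adjusted p = 0.0153). At D32 the libraries held 299, 254 and 157 CPM, 165-fold above D18 by the means (log2 7.36, SE 0.42, adjusted p = 9.80e-09). In P-RPE it stood at 2783 and 2707 CPM, so that D32 reached 8.62% of P-RPE, the lowest share of the 9 genes (log2 -3.54, SE 0.35, adjusted p = 1.97e-06).

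Lrat and Rpe65, the enzymes that esterify and then isomerise retinol, were near or at 0 until D18. Lrat (chromosome 3, start 82892579, end 82903973) had 0 counts in all MEF and D7 libraries and 2 counts over the 3 D18 libraries. At D32 it stood at 436, 179.9 and 217 CPM, and in P-RPE at 3206 and 2238 CPM. The ratio of D32 to D18 was 14619, with a 95% counting interval of 4197 to 125195 that covers counting error only (adjusted p = 2.64e-07). D32 reached 10.2% of P-RPE (log2 -3.29, SE 0.37, adjusted p = 6.93e-05).

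Rpe65 (chromosome 3, start 159599175, end 159625321) had 0 counts in MEF, 6, 20 and 2 counts at D7, and 2, 0 and 2 counts at D18. The D7 mean of 0.221 ± 0.210 CPM was at least 7.70-fold higher than in MEF (adjusted p = 0.0347), and 20 of its 28 counts came from replicate 2. Without that library, or without any single MEF library, the D7 call was lost, with adjusted p-values of 0.0596 to 0.129. From D7 to D18 there was no call (log2 -2.51, SE 1.29, adjusted p = 0.122). At D32 the libraries held 718, 317 and 329 CPM, far above every earlier library (mean 455 ± 228, log2 13.46, SE 0.71, adjusted p = 4.02e-08). The P-RPE libraries held 4564 and 3231 CPM, and D32 reached 11.7% of their mean (log2 -3.10, SE 0.40, adjusted p = 6.11e-05).

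Rlbp1, the 11-cis retinoid binding protein (chromosome 7, start 79374870, end 79387048), rose at every step. It had 4, 0 and 4 counts in MEF, 0.733, 0.613 and 0.565 CPM at D7, and 1.91, 2.16 and 2.74 CPM at D18. Each group lay wholly above the one before it, by 2.99 on the log2 scale at D7 (SE 0.58, adjusted p = 5.11e-04) and by a further 1.83 at D18 (SE 0.32, adjusted p = 2.08e-04). At D32 it stood at 872, 617 and 433 CPM, 282-fold above D18 (log2 8.14, SE 0.32, adjusted p = 1.21e-10). In P-RPE it stood at 6292 and 5529 CPM, and D32 reached 10.8% of that mean (log2 -3.21, adjusted p = 1.34e-07).

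The dehydrogenases Rdh5 and Rdh10 were present in fibroblasts and rose at every step. Rdh5 (chromosome 10, start 128913593, end 128922888) stood at 0.97, 1.08 and 0.79 CPM in MEF, 5.60, 10.3 and 4.17 CPM at D7, and 43.2, 50.8 and 45.4 CPM at D18. D32 libraries held 363, 311 and 189 CPM and P-RPE libraries 3010.3 and 2859 CPM. No library of a group overlapped the group before it. The log2 changes were 2.81 (SE 0.35, adjusted p = 9.30e-06), 2.80 (SE 0.29, adjusted p = 1.83e-06) and 2.63 (SE 0.28, adjusted p = 2.45e-06) for the 3 steps up to D32. The gene overlaps Bloc1s1 on the same strand, and counts in the shared stretch cannot be assigned with certainty; Bloc1s1 itself averaged 0.473 to 2.15 CPM in the 5 groups.

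Rdh10 (chromosome 1, start 16105774, end 16133734) was the most abundant of the 9 genes in MEF, D7 and D18 in CPM. It stood at 16.3, 20.0 and 18.9 CPM in MEF, 40.5, 41.8 and 37.2 CPM at D7, and 107, 76.2 and 96.5 CPM at D18. D32 libraries held 537, 292 and 273 CPM and P-RPE libraries 3096 and 2555 CPM. Its groups did not overlap either, and the log2 changes were 1.12 (SE 0.22, adjusted p = 5.34e-04), 1.23 (SE 0.22, adjusted p = 2.11e-04) and 1.98 (SE 0.22, adjusted p = 2.71e-06). D32 reached 13.0% of P-RPE for Rdh10, the highest share of the 9 genes (log2 -2.94, SE 0.24, adjusted p = 1.54e-07), and 9.80% for Rdh5 (log2 -3.35, SE 0.30, adjusted p = 5.77e-07).

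The RPE opsins Rgr and Rrh differed in level, and both rose from D18 to D32. Rgr (chromosome 14, start 37034909, end 37048964) had 0 counts in MEF, 3 counts over the D7 libraries and 6 counts over the D18 libraries, all from a single library each time. At D32 it stood at 3021, 2019 and 1383 CPM and in P-RPE at 23345 and 21136 CPM. The rise from D18 was 15.15 on the log2 scale (SE 0.64, adjusted p = 3.35e-09), and D32 reached 9.63% of P-RPE (log2 -3.38, SE 0.37, adjusted p = 1.11e-05).

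Rrh (chromosome 3, start 129804408, end 129822587) had 8 counts over the MEF libraries and stood at 0.380, 0.363 and 0.589 CPM at D7, a rise of 2.49 on the log2 scale (SE 0.73, adjusted p = 0.00999). With limma-voom in place of edgeR that rise was not called (adjusted p = 0.0785). At D18 it stood at 0.281, 0.267 and 0.114 CPM, all below D7 but with no call (log2 -0.996, SE 0.57, adjusted p = 0.155). At D32 it stood at 72.1, 42.5 and 34.0 CPM (log2 7.78 against D18, SE 0.39, adjusted p = 2.37e-09), and in P-RPE at 504 and 418 CPM. D32 reached 10.7% of P-RPE (log2 -3.22, SE 0.28, adjusted p = 4.17e-07).

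**Figure D2:**
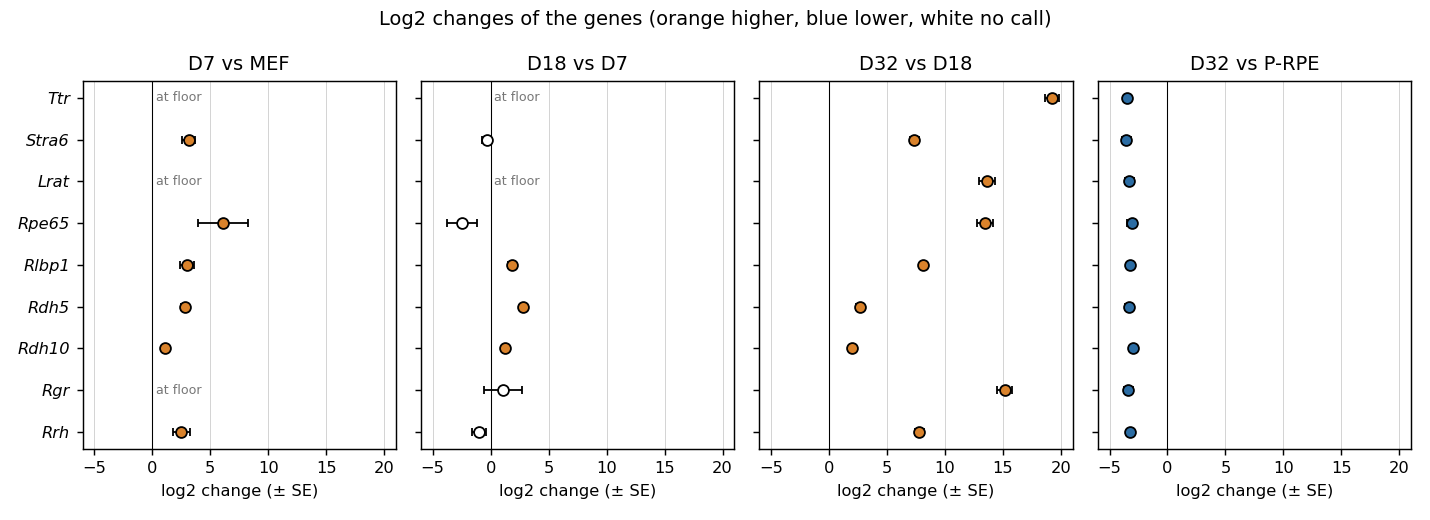
Log2 changes of the 9 genes with SE from edgeR's fit in 4 comparisons; orange marks a gene called higher, blue called lower, white no call, and "at floor" a gene with at most 3 counts in each group. Changes from D18 to D32 ran from 1.98 for Rdh10 to values that depend on the prior count where D18 had 0 counts (Ttr), while the changes against P-RPE lay between -3.54 and -2.94.

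The rise from D18 to D32 differed widely between the 9 genes, from 3.93-fold for Rdh10 and 6.19-fold for Rdh5 to at least 73625-fold for Ttr. The gap to P-RPE did not. Each gene reached between 8.62% and 13.0% of its P-RPE mean at D32, with a median of 10.2%, whereas the median over all tested genes with a mean over 10 CPM in P-RPE was 91.9%. Spread over the D32 libraries was wider than this range: replicate 1 held 10.9% to 19.0% of the P-RPE level, replicate 2 held 6.61% to 10.6% and replicate 3 held 5.73% to 9.67%. Replicate 1 was the highest for every gene, so shares were also read within each library. Rdh10 was above Stra6 in each of the 3, at 19.0% against 10.9%, 10.3% against 9.26% and 9.67% against 5.73%. These 2 genes were picked as the ends of the range of means in these same libraries. They were not the ends in replicate 2, where Rdh5 (10.6%) was above Rdh10 and Lrat (6.61%) below Stra6.

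Other RPE markers were compared in the same way. The 12 markers outside the 9 genes had shares of 8.71% to 59.6% with a median of 17.5%. Slc16a8, a lactate transporter of the RPE (8.71%), Kcnj13, a potassium channel (8.88%), and Slc45a2, a melanosome transporter (9.31%), lay near the 9 genes. The melanin genes Tyr (16.2%), Tyrp1 (18.7%), Dct (21.5%) and Mlana (21.8%), Mitf, a master regulator of pigment cells (22%), and the channel Trpm1 (39.7%) lay above all 9. Otx2, a homeobox factor of the RPE, stood at 13.8% and Pmel, a melanosome matrix protein, at 13.7%. Of the 12, 11 were lower in D32 than in P-RPE and 1, Best1, had no call (59.6%, adjusted p = 0.0982). Best1 was low throughout, with means of 1.55 CPM at D18, 1.36 CPM at D32 and 2.29 CPM in P-RPE, and had no call from D18 to D32. Whether the 9 genes differ from these markers in their share was not tested.

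**Figure D3:**
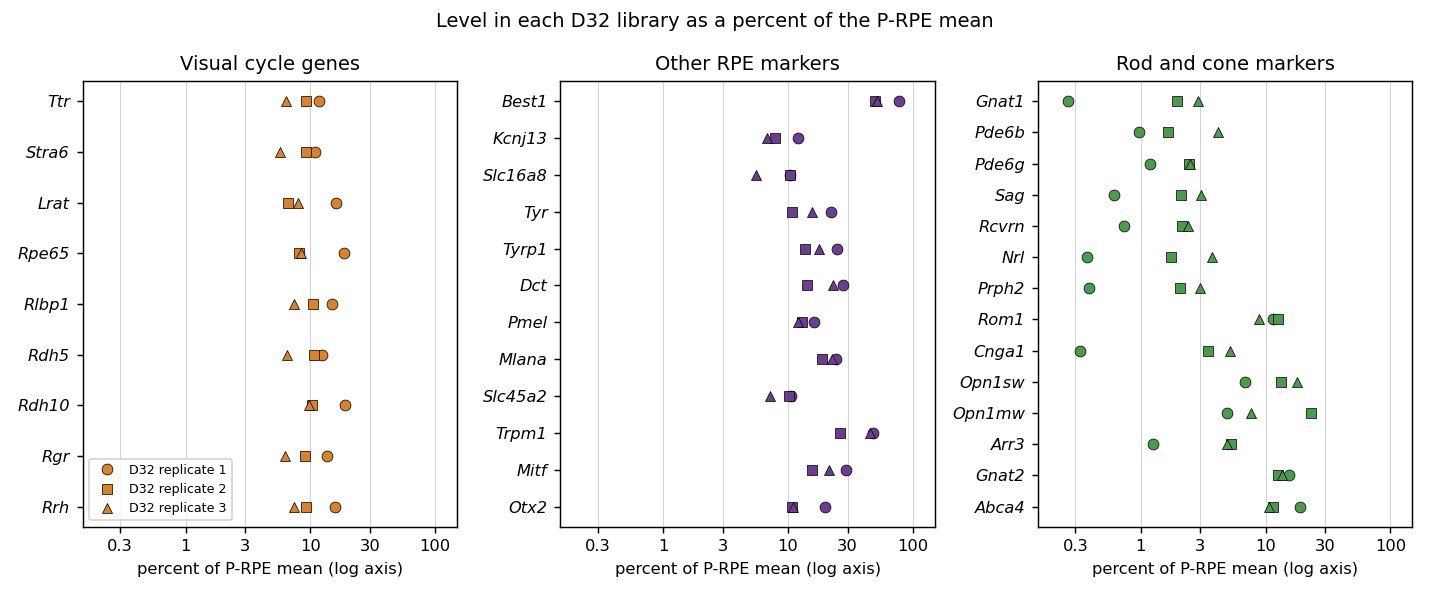
Level in each D32 library as a percent of the P-RPE mean (log axis) for the 9 genes, 12 other RPE markers and 14 of the 15 rod and cone markers; the symbol gives the replicate. The 9 genes lie between 5.73% and 19.0%, with replicate 1 the highest for each, while Gnat1 lies at 0.261%, 1.94% and 2.89% in replicates 1, 2 and 3.

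All 9 genes were highest in the same D32 library, but they did not share the lowest one. Replicate 1 was the highest for 9 of 9, at 1.84-fold (Ttr) to 2.42-fold (Lrat) the lowest library. Replicate 3 was the lowest for 7, and replicate 2 for Rpe65 and Lrat. Replicate 1 was also the highest for 11 of the 12 other RPE markers, and for 36% of all tested genes. Rod and cone markers ran the other way, with replicate 1 the lowest for 12 of 15 and replicate 3 the highest for 10. Gnat1, the rod transducin, stood at 1.05, 7.81 and 11.7 CPM in D32 replicates 1, 2 and 3. The red cell markers were lowest in replicate 1 for 5 of 7 and the fibroblast markers for 7 of 10, beside 32% of all tested genes. The endothelial markers were highest in replicate 1 for 5 of 7. The part of these other cells in the differences between libraries was not tested.

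The summed levels of rod and cone, endothelial and red cell markers rose from D18 to D32, as the 9 genes did, and were highest in P-RPE. From MEF to D7, where the sum of the 9 genes rose, these sums did not. The endothelial sum was 52.8 to 57.7 CPM in MEF and 3.34 to 4.27 CPM at D7. The rod and cone and the red cell sums overlapped between MEF and D7. Fibroblast sums overlapped between D18 and D32 (6 of 10 markers higher, 1 lower, 3 with no call) and were lowest in P-RPE. The 15 rod and cone markers summed to 28.7 to 34.4 CPM in D18 libraries. The sum was 205 to 251 CPM in D32 libraries and 2439 to 4306 CPM in P-RPE. Abca4, a photoreceptor retinoid transporter, made up 194, 119 and 109 CPM of the sum in D32 replicates 1, 2 and 3; without it the sum was 56.9, 88.9 and 96.4 CPM, lowest in replicate 1. From D18 to D32, 11 rose and 4 had no call, and all 15 were lower in D32 than in P-RPE, 9 of them at under 3% of it. The 7 endothelial markers summed to 1.62 to 7.36 CPM at D18, 165 to 219 CPM at D32 and 628 to 733 CPM in P-RPE, and all 7 rose from D18 to D32. The 7 red cell markers summed to 0.112 to 0.454, 103 to 204 and 975 to 1780.4 CPM in the same order, with 6 higher. The 10 fibroblast markers summed to 3122 to 14274 CPM at D18, 10762 to 16771 CPM at D32 and 985 to 1229 CPM in P-RPE, and all 10 were higher in D32 than in P-RPE. No marker of these 4 lists was at 0 in every D32 or P-RPE library. In the P-RPE libraries, labelled with an embryonic tissue, Gnat1 stood at 208 and 598 CPM. The part of these cells in the levels of the 9 genes was not tested.

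Ttr is also a leading transcript of choroid plexus and liver, and Rlbp1 is made by Müller glia, so markers of these cells were read beside them. Of 10 tested choroid plexus markers, 7 rose, 2 fell and 1 had no call from D18 to D32; the list summed to 591 to 779 CPM at D18, 1186 to 1642 CPM at D32 and 7422 to 8820.3 CPM in P-RPE. Slc4a5, a bicarbonate transporter, led the rise (0.120 to 281 CPM), followed by Clic6 (0.410 to 159 CPM). The 2 that fell were Lmx1a (0.874 to 0.0693 CPM) and Ecrg4 (372 to 67.2 CPM). Kl was under the test's filter, at 0.11 to 0.30 CPM at D32 and as low in P-RPE (0.168 and 0.214 CPM). Of 7 tested liver and visceral endoderm markers, 2 rose, 1 fell and 4 had no call. All 10 listed summed to 832 to 965 CPM at D18, 2030 to 4270 CPM at D32 and 22530 to 23110 CPM in P-RPE. Trf averaged 22742 CPM of that P-RPE sum. The other gene that rose is not reported here. Alb, serum albumin, fell from 16.5 ± 8.72 to 4.51 ± 1.10 CPM (adjusted p = 7.89e-04), and Trf, transferrin, rose from 903 ± 68.5 to 3052 ± 1127 CPM (adjusted p = 3.79e-06). Müller glia and astrocyte markers summed to 41041 to 56631 CPM at D18, 6863 to 8505 CPM at D32 and 16187 to 17342 CPM in P-RPE. Apoe averaged 11764 CPM of that P-RPE sum and Gfap 130 CPM. Single markers did not all follow the sum: 6 of the 12 were higher in D32 than in P-RPE, 5 lower and 1 had no call. From D18 to D32, 4 of 12 were higher and 8 lower. The 4 that rose with Rlbp1 were Car14, a carbonic anhydrase (9.18 ± 1.44 to 150.4 ± 55.4 CPM, adjusted p = 1.06e-08), Hes1, a Notch target (12.8 ± 3.63 to 80.0 ± 4.64 CPM, adjusted p = 1.95e-08), Dkk3 (60.6 ± 17.4 to 284 ± 50.2 CPM, adjusted p = 7.67e-05) and Glul, glutamine synthetase (295 ± 35.1 to 434 ± 79.6 CPM, adjusted p = 0.00839). Gfap, the astrocyte filament, fell from 26579 ± 5715 to 1539 ± 149 CPM (adjusted p = 4.45e-08). The part of these cell types in the result was not tested.

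Levels of different genes were compared per kilobase of exon (union of annotated exons). In P-RPE the order was Ttr (19017 CPM per kb), Rgr (4647), Rpe65 (2015), Rlbp1 (2001), Rdh5 (1045), Rdh10 (679), Lrat (509), Stra6 (471) and Rrh (78.0). With this length the D32 means had the same order, with Ttr at 1722 CPM per kb, Rgr at 447, Rpe65 at 235, Rlbp1 at 217, Rdh5 at 102, Rdh10 at 88.3, Lrat at 51.9, Stra6 at 40.6 and Rrh at 8.38. Read within each library, every gene was above the next in all 3 D32 and both P-RPE libraries, except Rpe65 against Rlbp1 and Lrat against Stra6. Each of these pairs kept its order in 2 of 3 D32 libraries and 1 of 2 P-RPE libraries, so neither pair can be ordered. At D18 Rdh10 (22.4 CPM per kb) and Rdh5 (16.5) made up 56.0% and 41.3% of the sum over the 9 genes. At D32 Ttr alone made up 59.1% and in P-RPE 62.4%. The ratio of the highest to the lowest gene in P-RPE was 244, and 124 with the length of the longest transcript in its place. With that length the order in P-RPE became Ttr, Rgr, Rlbp1, Rdh5, Rpe65, Stra6, Rdh10, Lrat and Rrh. At D32 it became Ttr, Rgr, Rlbp1, Rpe65, Rdh5, Rdh10, Stra6, Lrat and Rrh, so the 2 orders were no longer the same, and at D18 Rdh5 stood above Rdh10.

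**Figure D4:**
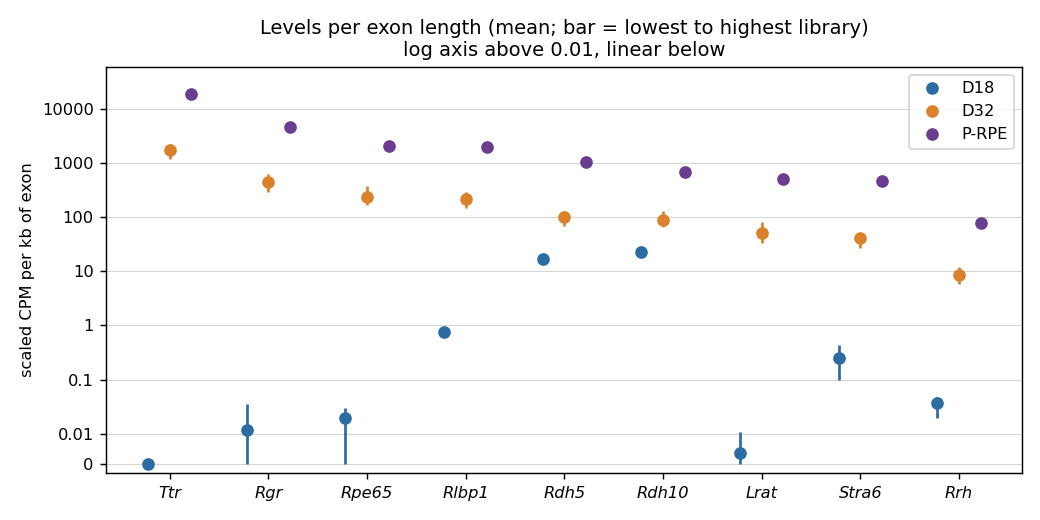
Mean scaled CPM per kilobase of exon for the 9 genes at D18, D32 and in P-RPE, with bars from the lowest to the highest library, on an axis that is logarithmic above 0.01 and linear below. The 9 genes are drawn in the order of their P-RPE level, which with this exon length, but not with that of the longest transcript, is also the order of the D32 means. At D18 Rdh5 and Rdh10 are the highest.

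Other genes of vitamin A handling did not rise as a group from D18 to D32. Of 6 tested retinoid carriers, 3 rose, 2 fell and 1 had no call, with a median log2 change of 0.87. Rbp3, the retinoid carrier of the space between photoreceptors and RPE, rose from 0.0190 to 5.94 ± 2.11 CPM (ratio 313, 95% counting interval 88.2 to 2646, adjusted p = 9.56e-06) and reached 4.02% of P-RPE. Rbp2 fell to 0.0858 CPM (log2 -2.98, adjusted p = 0.0129). Crabp1, a retinoic acid binding protein, fell by 1.02 on the log2 scale (adjusted p = 0.00675) yet stood at 82.6 ± 17.8 CPM at D32 against 0.245 ± 0.109 in P-RPE. Crabp2 had no call (6.39 ± 2.56 against 4.46 ± 3.07 CPM). Rbp7 was under the filter.

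Of 9 tested dehydrogenases and reductases other than Rdh5 and Rdh10, 2 rose, 3 fell and 4 had no call. Dhrs3, which reduces retinal to retinol, rose from 10.8 ± 1.60 to 63.1 ± 6.96 CPM (log2 2.55, SE 0.13, adjusted p = 1.25e-09), and Rdh13 rose by 0.51 on the log2 scale (adjusted p = 0.00390). Rdh8, a photoreceptor enzyme, fell to 0.0780 CPM (log2 -2.98, adjusted p = 0.00104) and Dhrs9 to 0.0860 CPM (log2 -1.45, adjusted p = 0.0102). Rdh11 stood at 54.0 ± 13.2 against 42.4 ± 5.88 CPM with no call (adjusted p = 0.0659); it was called higher without D32 replicate 2 (adjusted p = 0.0180) and on library totals alone (adjusted p = 0.0362). Of 6 genes of carotenoid uptake and cleavage and of other acyltransferases, 2 rose, 2 fell and 2 had no call. Scarb1, the carotenoid and lipoprotein receptor, rose by 0.82 on the log2 scale (adjusted p = 8.84e-05) and Dgat1 by 0.57 (adjusted p = 0.00142), while Awat2 fell by 1.98 (adjusted p = 0.00537) and Dgat2 by 0.94 (adjusted p = 4.24e-05). Bco2, which cleaves carotenoids, had no call at 1.83 ± 0.882 CPM.

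M3 medium contains retinoic acid, and the genes of its synthesis, breakdown and reception were listed for that reason. D18 and D32 also differ in the rest of the medium and in day, so retinoic acid cannot be told apart from these. Of 7 synthesis and breakdown genes, 4 rose from D18 to D32, 0 fell and 3 had no call. Cyp26a1, which degrades retinoic acid, rose from 0.161 ± 0.232 to 6.44 ± 1.26 CPM (log2 5.26, SE 0.73, adjusted p = 2.84e-05), and Cyp26c1 from 0.0368 to 0.681 ± 0.227 CPM (adjusted p = 7.03e-04). Aldh1a1, a retinal dehydrogenase, stood at 336 ± 62.9 CPM at D18 and 256 ± 64.9 CPM at D32 with no call, and at D32 was 5.81-fold above P-RPE (log2 2.54, SE 0.28, adjusted p = 4.39e-06). Against P-RPE, 2 of the 7 were higher in D32, 0 lower and 5 had no call. Of 10 receptors and response genes, 6 rose from D18 to D32, 3 fell and 1 had no call; Cyp26a1 and Dhrs3 are in this list too. Rxrg fell by 0.81 on the log2 scale (adjusted p = 0.0296), a call lost when replicate 2 of D18 or replicate 1 or 3 of D32 was left out (adjusted p = 0.0602 to 0.154).

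Among 9 transcription factors of the RPE, 6 rose from D18 to D32, 1 fell and 2 had no call. Otx2 had 0 counts at D18 and stood at 104, 57.2 and 58.2 CPM at D32, at least 2632-fold higher (adjusted p = 5.76e-08), with the highest value in the library where the 9 genes were highest. Crx, the photoreceptor homeobox factor, is counted among the 6. It had 0 counts at D18 and 0.574 ± 0.481 CPM at D32, at least 20.7-fold higher (adjusted p = 0.00153). D32 replicates 1, 2 and 3 held 0.150, 0.475 and 1.10 CPM of Crx, lowest where the 9 genes were highest. Its D32 mean was 2.99% of P-RPE. Sox9, which is made by RPE and by glia, fell from 432 ± 106 to 57.2 ± 7.76 CPM (log2 -2.91, SE 0.16, adjusted p = 2.12e-09). Pax6, an early eye field factor, had no call at 35.6 ± 12.5 against 41.8 ± 3.28 CPM. Against P-RPE, 6 of the 9 were lower in D32 and 3 had no call.

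The genes most like each member in their pattern, 3 for each except Rdh5, were found by Pearson's r of log2 CPM over the 14 libraries among 12196 genes that averaged 10 CPM or more in some group. These libraries share their groups, so r mainly reflects the steps between groups. For Rpe65 they were Otx2 (0.995), Slc24a1 and Trpm3, for Lrat Sult1c1 (0.999), Tyr and Tmem72, and for Rlbp1 Slc6a20a (0.994), Edn3 and Pmel. For Rgr they were Ttr (0.998), Tyrp1 and Sult1c1, and for Ttr Sult1c1 (0.999), Tyr and Otx2. Rrh lay closest to Slc16a8 (0.992), Clic6 and Trpm3, and Stra6 to Slc6a13 (0.997), Slc16a8 and Gsx2. The dehydrogenases that rose early had other neighbours: Cpq (0.993) and Cpxm2 for Rdh5, and Rgs9 (0.996), Sgk3 and A930028N01Rik for Rdh10.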

How the data were processed

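The deposited mouse table holds whole-number counts per gene symbol and library, per the labels; edgeR 4.0.16, limma 3.58.1, STAR 2.7.11a, Subread with featureCounts and the builds mm10, GRCm38 and GRCh38 are named, without roles, per the submitters' processing notes. Strand setting, annotation release and treatment of read pairs are not given in the sources used here, so overlapping genes are uncertain (Stra6 with Ccdc33, Lrat with Rbm46os, Rdh5 with Bloc1s1). A table of human libraries was not used here.

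Counts of all 14 libraries were fitted in 1 model with 5 group means in edgeR 4.0.16 (R 4.3.3; TMM, filterByExpr, robust quasi-likelihood F test, Benjamini-Hochberg over 20562 genes). The script was tested on simulated data. DESeq2 1.42.0, limma-voom, other scalings, filters, a replicate block and leaving out each library were tried as alternatives. The SE is the log2 change divided by the square root of F. Coordinates and exon lengths come from GENCODE vM21 (GRCm38), promoters from RefSeq. Named genes were all members, in each list the 2 called genes that changed most in either direction and the uncalled gene of highest level, the most abundant gene of marker lists, and the 3 genes most like each member; Slc45a2, Mitf, Trpm1, Kl, Dkk3 and Glul were named after their values were seen. A few genes that this rule names are not reported here. Members and lists were chosen with earlier results of these data known.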

Additional observations from a re-analysis of the deposited data

How the results depend on the processing

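The counts of 9 members higher in D32 than in D18 or MEF, 9 higher in P-RPE than in MEF and 9 lower in D32 than in P-RPE stood under every alternative run, with the largest adjusted p of any member in D32 against P-RPE at 0.0112. The D7 against MEF count ranged from 4 to 6 and the D18 against D7 count from 3 to 4. Rpe65 was lost at D7 with no filter (adjusted p = 0.143), with limma-voom (0.177) and with counts halved and rounded up, an alternative chosen after seeing the data (0.0723); DESeq2 called Rpe65 lower at D18 than at D7 (0.0318). Without D18 replicate 1, the D18 against D7 change of Rgr turned to -3.06 and that of Stra6 to 0.045, neither called; over single libraries left out they ranged from -3.06 to 4.14 and from -1.08 to 0.045. From D18 to D32, uncalled Rara (0.04) turned to -0.030 with RLE size factors and with DESeq2, -0.012 without D18 replicate 1, -0.086 without D18 replicate 3 and -0.14 without D32 replicate 2. Uncalled Pax6 ranged from -0.44 to 0.032, the latter without D32 replicate 2. Rxrg (adjusted p = 0.0664 with limma-voom, 0.0993 in a model of the 2 groups alone) and Dhrs9 (0.0552 with halved counts) were lost. With the longest transcript in place of all exons, the ratio of the highest to the lowest member per length in P-RPE moved to 124. The cause was not tested.

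With library totals alone, the median gene moved by 0.32 from MEF to D7, -0.19 from D7 to D18, 0.20 from MEF to D32 and 0.23 from P-RPE to D32, and the higher share of calls went from 51.8% to 69.7%, 51.6% to 40.7%, 59.2% to 69.1% and 50.2% to 62.1%. With the replicate block, 11269 genes were called from D18 to D32 (main 11525) and the 6 member counts were unchanged; over 26 same-number pairs r was -0.0967 to 0.0953, so the numbers were not taken to pair libraries. With 1 count worth 0.0227 to 0.0305 CPM, depth limits what can be said of Ttr, Lrat, Rgr and Rpe65 before D32.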

Other observations

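Between D7 and D18, both labelled with M7 medium, 3 of 7 genes of retinoic acid synthesis and breakdown were higher, 1 lower and 3 had no call, and of 10 receptors and response genes 3 were higher, 2 lower and 5 had no call. Over all tested genes 29.2% were called higher and 27.4% lower, so these shares are near the background, and single genes are given as values. Aldh1a1 rose from 19.6 ± 3.54 to 336 ± 62.9 CPM (log2 4.10, SE 0.26, adjusted p = 1.41e-08), and Rarb, a retinoic acid receptor that is itself a response gene, rose from 0.235 ± 0.173 to 6.05 ± 1.60 CPM (log2 4.63, SE 0.36, adjusted p = 6.39e-08). Over the same interval Crabp1 fell from 522 ± 66.1 to 167 ± 75.7 CPM (adjusted p = 2.12e-04) and Aldh1a3 from 3.37 ± 0.968 to 0.421 ± 0.192 CPM (adjusted p = 7.76e-06). Of the 9 members, Rlbp1, Rdh5 and Rdh10 rose over this interval.

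Rarres1, a retinoic acid response gene, stood at 34.3 ± 12.5 CPM at D32 against 0.881 ± 0.337 CPM in P-RPE (log2 5.28, adjusted p = 2.84e-08), and Cyp26b1 at 109.9 ± 27.8 against 29.0 ± 13.3 CPM (log2 1.92, adjusted p = 9.87e-04). Rarg (72.4 ± 11.2 against 65.2 ± 7.86 CPM) and Aldh1a2 (55.5 ± 11.7 against 59.1 ± 7.03 CPM) had no call. P-RPE was labelled as untreated, and retinoic acid in the D32 medium cannot be told apart from cell identity in this comparison.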
